A study of Mus musculus with 47 samples.

Results

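Ccdc82 and 7 genes beside it on mouse chromosome 9 (Jrkl, Maml2, Mtmr2, Cep57, Fam76b, Sesn3 and Endod1) were followed across 6 genotypes. They were chosen by gene name and position, and they make up 8 of the 48795 genes in the deposited tables and 8 of the 19174 genes with enough counts to be tested. The RNA came from cerebral cortex of 47 C57BL mice, all 6 months old, 23 of them female and 24 male. Wild-type mice (WT), mice with 1 intact Ccdc82 copy (Ccdc82+/-), mice with none (Ccdc82-/-), mice with the Q140 allele, and Q140 mice with Ccdc82+/- were represented by 4 females and 4 males each. Q140 mice with Ccdc82-/- were represented by 3 females and 4 males. Q140 is a knock-in of an expanded CAG repeat in Htt, the Huntington's disease gene, and every mouse that carried it was heterozygous by its label. The crosses address what the loss of Ccdc82 does in cortex with and without that allele. Which exons of Ccdc82 were removed is not stated in the labels, so a level of Ccdc82 RNA below is a level of reads assigned to the gene and not of intact transcript.

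Genes that lie close together can share regulatory DNA, and an engineered allele can alter the RNA of genes next to it or carry linked variants with it. The neighbours of a targeted gene are therefore a measure of how far a change reaches along the chromosome. Ccdc82 encodes a coiled-coil protein whose molecular role is little described. Jrkl encodes a transposase-derived DNA-binding protein. Maml2 is a Mastermind coactivator that completes the Notch transcription complex. Mtmr2 is a myotubularin, a phosphatase that removes the phosphate at the D-3 position of inositol lipids of endosomes and is mutated in a recessive neuropathy of Schwann cells. Cep57 is a centrosomal, microtubule-binding protein mutated in a mosaic aneuploidy syndrome. Fam76b is a histidine-rich nuclear protein. Sesn3 is a sestrin, a stress-induced inhibitor of mTORC1, the kinase complex that couples growth to amino acids. Endod1 encodes a protein with an endonuclease domain.

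All coordinates are from the GENCODE M21 annotation of GRCm38, the build named in the submitters' processing notes. Ccdc82 (ENSMUSG00000079084) lay at chr9:13246955-13292520 on the plus strand. Jrkl (ENSMUSG00000079083, chr9:13242607-13245829) lay head to head with it on the minus strand, with 1126 bp between the start sites. Maml2 (ENSMUSG00000031925, chr9:13297957-13709388, plus strand) began 5.44 kb beyond the end of Ccdc82. Mtmr2 (ENSMUSG00000031918, chr9:13748410-13806481, plus strand) ended 1310 bp before the end of Cep57 (ENSMUSG00000031922, chr9:13807792-13827107, minus strand). Cep57 and Fam76b (ENSMUSG00000037808, chr9:13827716-13854987, plus strand) formed a second head-to-head pair, with start sites 609 bp apart. Sesn3 (ENSMUSG00000032009, chr9:14275067-14333101, plus strand) and Endod1 (ENSMUSG00000037419, chr9:14353990-14381507, minus strand) were the most distant, with gaps of 983 kb and 1061 kb to Ccdc82. In the same annotation 4 further genes of the count table overlapped Ccdc82 or Maml2, but none had more than 4 counts in a library.

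The promoters of Cep57 and Fam76b are shown because the RNA of this pair varied together from mouse to mouse, as described below. Each line gives the 250 bases before the start site, 5′ to 3′ in the direction of the gene, from RefSeq (GRCm38.p6). Capitals mark CCAAT (the CCAAT box) and TGACGT (the core of the cyclic AMP response element) on either strand. The Cep57 window is chr9:13827108-13827357 and the Fam76b window chr9:13827466-13827715, so that 108 bases separate them.
Cep57: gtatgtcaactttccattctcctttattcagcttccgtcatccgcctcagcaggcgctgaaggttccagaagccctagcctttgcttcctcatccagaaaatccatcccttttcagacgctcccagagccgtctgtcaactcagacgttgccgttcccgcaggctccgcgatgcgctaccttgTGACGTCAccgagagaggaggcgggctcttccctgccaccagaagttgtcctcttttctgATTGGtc
Fam76b: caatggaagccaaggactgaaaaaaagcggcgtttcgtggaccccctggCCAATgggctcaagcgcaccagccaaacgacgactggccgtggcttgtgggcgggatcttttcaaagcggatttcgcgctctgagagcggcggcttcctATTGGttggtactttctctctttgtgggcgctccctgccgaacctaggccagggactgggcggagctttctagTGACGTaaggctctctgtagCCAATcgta

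Cep57 held 1 CCAAT match and 2 overlapping TGACGT matches that together spell TGACGTCA. Fam76b held 3 CCAAT matches and 1 TGACGT match. Among the 32841 windows of this length without unread bases in the RefSeq table, 33.9% held CCAAT, 6.47% held TGACGT and 2.22% held both. GGGCGG, the GC box, matched at 2 places in Fam76b and at none in Cep57 (32.7% of windows), and TATAAA in neither (12.4% of windows). The Cep57 window held 14 CG dinucleotides and the Fam76b window 18, against a median of 6. The windows behind the shares above were not matched for CG content. The windows of the other head-to-head pair, Ccdc82 and Jrkl, are not shown for comparison. These letter matches describe the sequence and were not tested for binding. RefSeq entries were found for 7 of the 8 genes.

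The libraries were of similar depth, at 43554594 to 61370843 counts, and the lowest count of any member in any library was 221, for Ccdc82 in a Ccdc82-/- mouse. Counting error alone gives a coefficient of variation of 6.13% at the median Ccdc82 count in Ccdc82-/-, where 11.2% was observed between mice. For Jrkl in WT it gives 4.39%, where 5.31% was observed, or 68.3% of the variance. That share was 15.6% for Maml2 in WT and 79.2% in Ccdc82+/-, and 30.0% for Ccdc82 in Ccdc82-/-. For Jrkl in Q140 it was 103% and for Maml2 in Q140 with Ccdc82+/- 182%, so no spread beyond counting error was seen there. The share of counting error in the spread of the low members thus varied by gene and group. For Sesn3 in WT counting error gives a coefficient of variation of 0.976%, where 4.56% was observed. Levels are given in CPM (counts scaled to the library total, with TMM factors), and in FPKM (also divided by gene length) where genes are compared with each other. The FPKM of the authors used a length of 1847 bp for Ccdc82, where the exons of M21 together span 9835 bp, while Mtmr2, Cep57 and Sesn3 had the same length in both. The rank of Ccdc82 among its neighbours in FPKM therefore rests on the gene model used, but its differences between genotypes do not depend on the length. In the tissue, excitatory cortical neuron markers were high (Slc17a7 205 to 240 FPKM), whereas the choroid plexus genes Folr1, Kl and Ttr reached 0.12, 0.26 and 3.02 FPKM and the thalamic genes Tcf7l2 and Prkcd 0.47 and 1.80 FPKM. Ttr varied from 0.136 FPKM upward, and the blood gene Hba-a1 from 0 to 9.96 FPKM. The Htt check of the other allele gave a lower level with Q140 (log2 difference -0.07, SE 0.015, adjusted p = 0.0032 in edgeR), and none that passed with any Ccdc82 genotype (adjusted p of 0.905 or more).

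Per length, Endod1 was the highest of the 8 genes in cortex and Maml2 the lowest. Over the 47 libraries the median was 21.1 FPKM for Endod1, 13.2 for Sesn3, 10.2 for Mtmr2 and 5.88 for Fam76b. It was 3.49 FPKM for Cep57, 3.41 for Jrkl and 1.36 for Maml2. Ccdc82 had a median of 8.59 FPKM in WT mice alone. Among the 7 neighbours the variation over all libraries was least for Mtmr2 (coefficient of variation of CPM 4.04%), Sesn3 (4.40%) and Endod1 (4.57%) and most for Fam76b (10.5%).

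Ccdc82 was lower with each lost copy, and the groups of different copy number did not overlap. WT mice ranged from 14.3 to 19.1 CPM with a median of 15.9. Ccdc82+/- mice ranged from 9.72 to 12.1 CPM (median 11.1) and Ccdc82-/- mice from 4.64 to 6.30 CPM (median 5.24). Every Ccdc82-/- mouse thus lay below every Ccdc82+/- mouse, and each of those below every WT mouse. With Q140 the ranges were 13.8 to 16.9 CPM (median 15.6) for 2 copies, 10.5 to 13.2 CPM (median 11.2) for 1 copy and 4.70 to 5.83 CPM (median 5.70) for none. The reads that remained in Ccdc82-/- mice numbered at least 221 per library, so they were not at the limit of detection.

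In order of mean CPM the genotypes were WT, Q140, Q140 with Ccdc82+/-, Ccdc82+/-, Q140 with Ccdc82-/- and Ccdc82-/-. Of the 5 pairs of neighbours in that order, the 2 that differ in copy number were separated without overlap. Q140 and Q140 with Ccdc82+/- differed by 4.29 CPM (two-sided exact permutation p = 0.0001554, 0.000777 adjusted over 5 pairs), the smallest p that 8 mice against 8 allow. Ccdc82+/- and Q140 with Ccdc82-/-, which differ in the Q140 allele as well, were 5.42 CPM apart (exact p = 0.0003108, 0.000777 adjusted). The other 3 pairs, each with the same number of copies, overlapped and differed by 0.195 to 0.568 CPM (exact p 0.367 to 0.474). The pairs were set by the order of the observed means, which these p-values do not take into account.

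**Figure D1:**
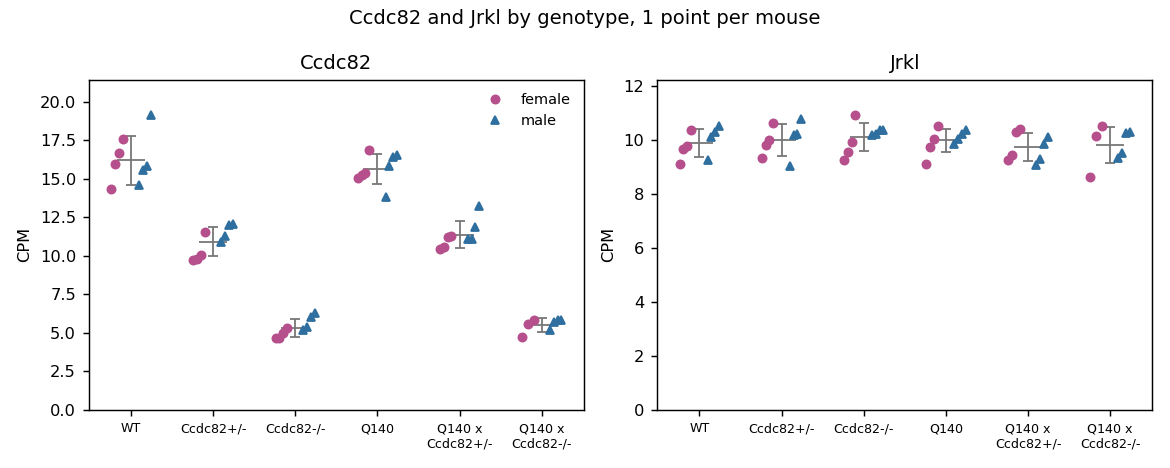
CPM of Ccdc82 (left) and Jrkl (right) in each mouse by genotype; circles are females, triangles males, sorted by value within sex, and grey bars are means with SD. The Ccdc82 values form 3 levels by copy number with no overlap, at 14.3 to 19.1 CPM in WT and 4.64 to 6.30 CPM in Ccdc82-/-, while Jrkl stays between 8.66 and 10.9 CPM in every genotype.

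On the linear scale, 1 copy gave a level close to the midpoint of the other groups in mice without Q140. The first lost copy took away 5.28 CPM and the second 5.61 CPM, which left the Ccdc82+/- mean 0.164 CPM above the midpoint (SE 0.453). With Q140 the first copy accounted for 4.29 CPM and the second for 5.85 CPM, and the mean of 1 copy lay 0.781 CPM above the midpoint (SE 0.365). As shares of the 2-copy mean, 1 copy left 67.4% without Q140 and 72.6% with it, and no intact copy left 32.8% and 35.2%. Whether the departure from the midpoint differs between mice with and without Q140 was not tested on this scale. On the log2 scale the interaction of Q140 with Ccdc82+/- was 0.11 (SE 0.077, adjusted p = 1) and that with Ccdc82-/- was 0.10 (SE 0.084, adjusted p = 1), in edgeR.

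Ccdc82 was the 1 gene called in each of 8 comparisons of Ccdc82 genotypes, which is 0.00522% of the genes tested in each (called means an edgeR Benjamini-Hochberg adjusted p under 0.05). Between no copy and 1 copy Ccdc82 fell by 1.04 on the log2 scale without Q140 (SE 0.059, adjusted p = 1.75e-18) and by 1.05 with it (SE 0.061, adjusted p = 5.19e-18). The Q140 allele itself went with no detectable difference in Ccdc82 averaged over the 3 Ccdc82 genotypes (log2 0.02, SE 0.034, 95% interval -0.05 to 0.08, adjusted p = 0.934). In that comparison 168 genes, 0.876% of those tested, were called.

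None of the 7 neighbours was called in any of the 8 comparisons of Ccdc82 genotypes, in edgeR or in DESeq2, against the 0.00522% of all genes called. Unadjusted, 1 of them was under 0.05 in 1 of these comparisons (Fam76b in pooled Ccdc82+/-, where 5.31% of all genes were). Over the 8 comparisons that share of all genes ran from 2.52% to 5.42%. Averaged over mice with and without Q140, the neighbours' log2 differences between Ccdc82-/- and 2 copies ran from -0.02 for Sesn3 to 0.02 for Cep57, with a median of 0.018. Over all genes tested the median was -0.000694. The median size of the difference, regardless of sign, was 0.018 for the neighbours and 0.028 for all genes. In counts simulated from these libraries with 200 changed genes, this comparison recovered 78% of 1.2-fold changes and 100% of 1.5-fold changes. It made 8 false calls over all fold sizes. With 1 gene called in the data, a gene needed a smaller unadjusted p to be called than in the simulation. These shares can therefore overstate the chance that a changed neighbour would have been called.

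Jrkl, whose start faces that of Ccdc82, ranged from 9.11 to 10.5 CPM in WT (median 9.95), from 9.04 to 10.8 CPM in Ccdc82+/- (median 10.1) and from 9.26 to 10.9 CPM in Ccdc82-/- (median 10.2). With Q140 it ranged from 9.12 to 10.5 CPM (median 10.04), from 9.09 to 10.4 CPM with Ccdc82+/- (median 9.67) and from 8.66 to 10.5 CPM with Ccdc82-/- (median 10.2). All 6 ranges overlapped. Pooled Ccdc82-/- differed from 2 copies by 0.182% (95% interval -4.06% to 4.61%, adjusted p = 1 in edgeR). A change of Jrkl of the size seen in Ccdc82, which was -66.2% in the same comparison, was thus far outside its interval.

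Maml2, whose start lies closest to the other end of Ccdc82, was the member with the lowest level per length. It ranged from 6.92 to 10.6 CPM in WT (median 8.53), from 7.85 to 9.18 CPM in Ccdc82+/- (median 8.14) and from 7.60 to 9.15 CPM in Ccdc82-/- (median 8.63), so that the WT mice spanned the range of both mutants. With Q140 the medians were 8.29, 8.52 and 8.39 CPM for 2, 1 and no copies, within a range of 7.44 to 10.1 CPM. The pooled Ccdc82-/- difference was 1.30% (95% interval -4.14% to 7.05%). For Maml2 the Q140 effect in males minus that in females was -0.16 on the log2 scale (SE 0.062, unadjusted p = 0.0132), which did not pass adjustment over all genes (adjusted p = 1, with 0% of genes called).

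Mtmr2, the lipid phosphatase, was the steadiest of the 7. Its medians were 49.7 CPM in WT (46.6 to 52.5), 50.7 CPM in Ccdc82+/- (46.6 to 51.8) and 50.9 CPM in Ccdc82-/- (49.3 to 54.0). In the Q140 groups they were 50.3, 49.1 and 49.8 CPM, with 45.2 to 53.7 CPM as the whole range. Every group overlapped every other, and the pooled Ccdc82-/- difference was 1.30% (95% interval -1.63% to 4.32%).

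Cep57 and Fam76b, the second head-to-head pair, lay 515 kb and 535 kb from Ccdc82. For Cep57 the medians were 14.9 CPM in WT (12.3 to 16.2), 14.7 CPM in Ccdc82+/- (13.6 to 16.7) and 14.7 CPM in Ccdc82-/- (13.5 to 15.9). Fam76b had medians of 25.5 CPM in WT (21.3 to 29.4), 26.7 CPM in Ccdc82+/- (22.9 to 31.9) and 25.2 CPM in Ccdc82-/- (22.4 to 28.9). The groups of both genes overlapped. With Q140 the medians were 14.4, 14.7 and 14.3 CPM for Cep57 and 24.8, 26.2 and 24.98 CPM for Fam76b. Fam76b was 6.85% above 2 copies in pooled Ccdc82+/- (95% interval 0.431% to 13.7%, unadjusted p = 0.0366). That difference did not pass the adjustment (adjusted p = 0.905), and the corresponding value for Ccdc82-/- was 1.25% (95% interval -4.95% to 7.86%).

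Sesn3, the sestrin, was the member with the most counts. Its medians were 204 CPM in WT (188 to 217), 195 CPM in Ccdc82+/- (186 to 206) and 200 CPM in Ccdc82-/- (182 to 214), and 206, 201 and 204 CPM in the 3 Q140 groups. Pooled Ccdc82+/- differed from 2 copies by -2.54% (95% interval -5.12% to 0.11%, adjusted p = 0.905) and pooled Ccdc82-/- by -1.23% (95% interval -3.89% to 1.51%). Endod1 had medians of 94.1 CPM in WT (82.2 to 99.3), 94.95 CPM in Ccdc82+/- (92.6 to 98.6) and 95.9 CPM in Ccdc82-/- (90.8 to 104). In the Q140 groups the medians were 97.1, 95.4 and 92.5 CPM. The Ccdc82-/- difference of Endod1 was 0.06 on the log2 scale without Q140 and -0.06 with it. The interaction, -0.12 (SE 0.046, 95% interval -0.21 to -0.03, unadjusted p = 0.013), did not pass adjustment over all genes (adjusted p = 1), and 0% of genes were called for either interaction.

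**Figure D2:**
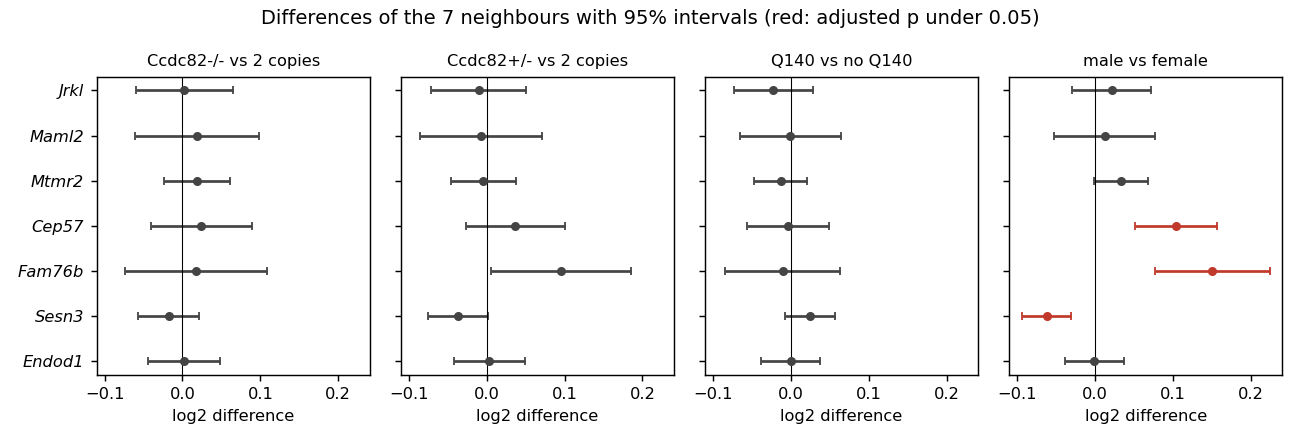
Log2 difference of each neighbour (points) with its 95% interval (bars) for pooled Ccdc82-/- and Ccdc82+/- against 2 copies, Q140 against no Q140, and males against females; red marks an adjusted p under 0.05. For Ccdc82-/- the points lie between -0.02 (Sesn3) and 0.0242 (Cep57), and the 3 red points, all in the sex panel, are Cep57 at 0.10, Fam76b at 0.15 and Sesn3 at -0.06.

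The Q140 allele went with no called difference in the neighbours either. Averaged over Ccdc82 genotypes, 0 of 7 were called in edgeR and in DESeq2, where 0.876% of all genes were called in edgeR. In edgeR 0 of 7 had an unadjusted p under 0.05, where 9.18% of all genes did. The neighbours' log2 differences ran from -0.02 for Jrkl to 0.02 for Sesn3 (adjusted p of 0.699 or more). In the single comparison of Q140 with WT, Endod1 differed by 0.07 (SE 0.032, unadjusted p = 0.0449, adjusted p = 0.707).

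In the calls, a wider view of the chromosome gave the same picture for Ccdc82 loss. Within 5 Mb on either side, 41 genes other than Ccdc82 were tested, the 7 neighbours among them, and 0 were called in any comparison of Ccdc82 genotypes. In pooled Ccdc82-/- 3 of the 41 had an unadjusted p under 0.05 (7.32%, against 4.65% of all genes). The 2 with the smallest p were Fat3, a giant cadherin, 2.62 Mb beyond the end of Ccdc82, at a log2 value of 0.09 (SE 0.030, adjusted p = 1), and Gm22620 at 0.36 (SE 0.149, adjusted p = 1, mean 0.333 CPM). The median over the 41 genes was 0.01, and their median size, 0.033, stood beside 0.028 for all genes. In Ccdc82-/- against WT 4 of the 41 had an unadjusted p under 0.05 (9.76%, against 3.23% of all genes). So did 4 in Ccdc82+/- against WT (9.76%, against 3.599%). Against Q140 the counts were 1 for Q140 with Ccdc82-/- (2.44%, against 4.09%) and 2 for Q140 with Ccdc82+/- (4.88%, against 5.42%). The remaining comparisons of Ccdc82 genotypes had 1 or 2 each. The higher shares against WT were thus not seen with Q140, and their cause was not tested. Windows of 1 Mb and 10 Mb, with 6 and 144 tested genes, also held 0 called genes.

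**Figure D3:**
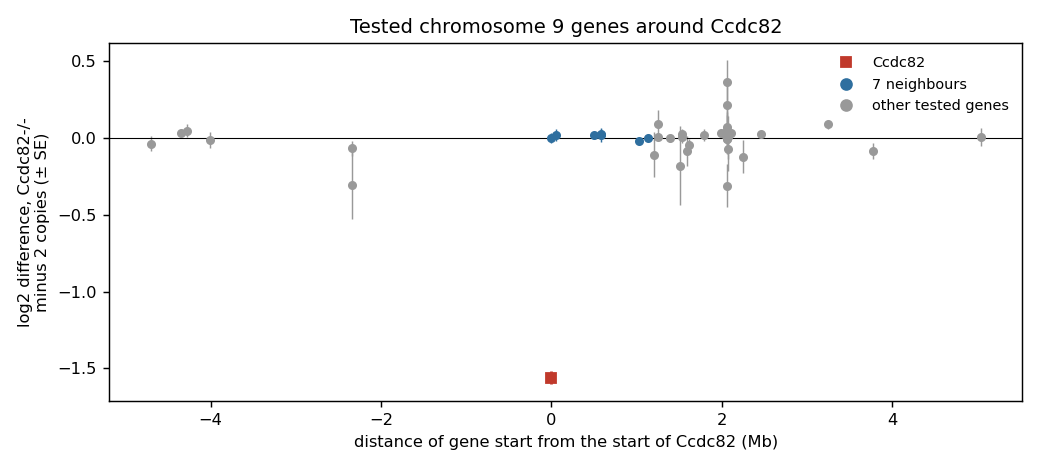
Log2 difference between Ccdc82-/- and 2 copies, pooled over Q140, with its SE (vertical bars), for tested chromosome 9 genes against the distance of their start from that of Ccdc82 in Mb. Ccdc82 lies at -1.56 and the 7 neighbours between -0.02 (Sesn3) and 0.0242 (Cep57); the grey genes farthest from 0 include Gm22620 at 0.36, a gene of very low level.

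The sexes differed in 3 of the 7 neighbours, where 10.5% of all genes tested differed (2018 genes, 5.26% higher and 5.27% lower in males). That even split, 1008 higher and 1010 lower, was 1290 higher and 718 lower in limma-trend on log2(FPKM + 0.1). Fam76b and Cep57, the head-to-head pair, were higher in males, and Sesn3 was lower. The other 4 neighbours were not called, with Mtmr2 closest at 0.03 (SE 0.017, adjusted p = 0.213). Ccdc82 itself was 6.78% higher in males, which just missed the threshold (log2 0.09, SE 0.033, adjusted p = 0.0559). It passed in 6 of 9 other settings, and not with a random block for the number in the library name (adjusted p = 0.268).

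Fam76b ranged from 21.3 to 28.8 CPM in the 23 females (median 24.9) and from 21.8 to 31.9 CPM in the 24 males (median 27.4). The ranges overlapped, but the males extended higher, and 19 of 24 exceeded the female mean of their genotype. Fam76b rose in males by 0.15 on the log2 scale (SE 0.037, 95% interval 0.08 to 0.22, adjusted p = 0.00647 in edgeR). The male mean was the higher one in 5 of 6 genotypes. Q140 without a Ccdc82 change was the exception, at 23.7 ± 1.94 CPM in males (SD, n = 4) against 25.5 ± 2.45 CPM in females (SD, n = 4).

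Cep57 ranged from 12.3 to 15.5 CPM in females (median 14.1) and from 13.5 to 16.7 CPM in males (median 15.2). It rose in males by 0.10 (SE 0.026, 95% interval 0.05 to 0.16, adjusted p = 0.00794), with 20 of 24 males above the female mean of their genotype. Its exception was again the Q140 group. In Q140 mice with Ccdc82+/- the sexes were separated without overlap, at 13.5 to 14.2 CPM in females and 15.2 to 16.4 CPM in males. These sex differences were not shown to depend on genotype: the male minus female difference of the pooled Ccdc82-/- effect was 0.02 for Cep57 and 0.09 for Fam76b, and of the pooled Q140 effect -0.01 and -0.03 (adjusted p = 1 for all, with 0% of genes called).

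Sesn3 ranged from 196 to 219 CPM in females (median 205) and from 182 to 215 CPM in males (median 196). It fell in males by 0.06 (SE 0.016, 95% interval -0.09 to -0.03, adjusted p = 0.00889), a difference of -4.23%. The male mean was the lower one in 6 of 6 genotypes, with log2 differences of -0.08 to -0.05, and 4 of 24 males lay above the female mean. The difference of Sesn3 was therefore small but similar in all 6 genotypes.

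Some technical and cell-type measures moved with sex as well. Each of the 15 library-name numbers held by more than 1 library was held by mice of 1 sex, and with a random block for that number the total of called genes was 853. The 3 neighbours were called with it too, at adjusted p = 0.0222 for Fam76b, 0.0329 for Cep57 and 0.0438 for Sesn3. Of 3 endothelial markers 2 were called lower in males, with a summed level of 18.6 to 24.1 FPKM in males and 19.997 to 26.7 FPKM in females, and none of these 3 was at 0 in any library. Of 4 interneuron markers 2 were called higher in males (295 to 358 FPKM against 297 to 348 FPKM, summed). Of 4 general neuron markers 1 was called lower in males (841 to 966 FPKM against 866 to 977 FPKM), and of 3 striatal markers 1 was called higher (22.6 to 31.6 FPKM against 22.5 to 30.4 FPKM). No tested marker of excitatory cortical neurons, astrocytes, oligodendrocytes, their precursors, microglia, choroid plexus, thalamus or blood was called. Of all genes tested, 10.5% were called. The part of these measures in the sex differences of the neighbours was not tested. Since whole cortex was sequenced, a difference in the number of cells of a type and one in RNA per cell cannot be told apart.

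**Figure D4:**
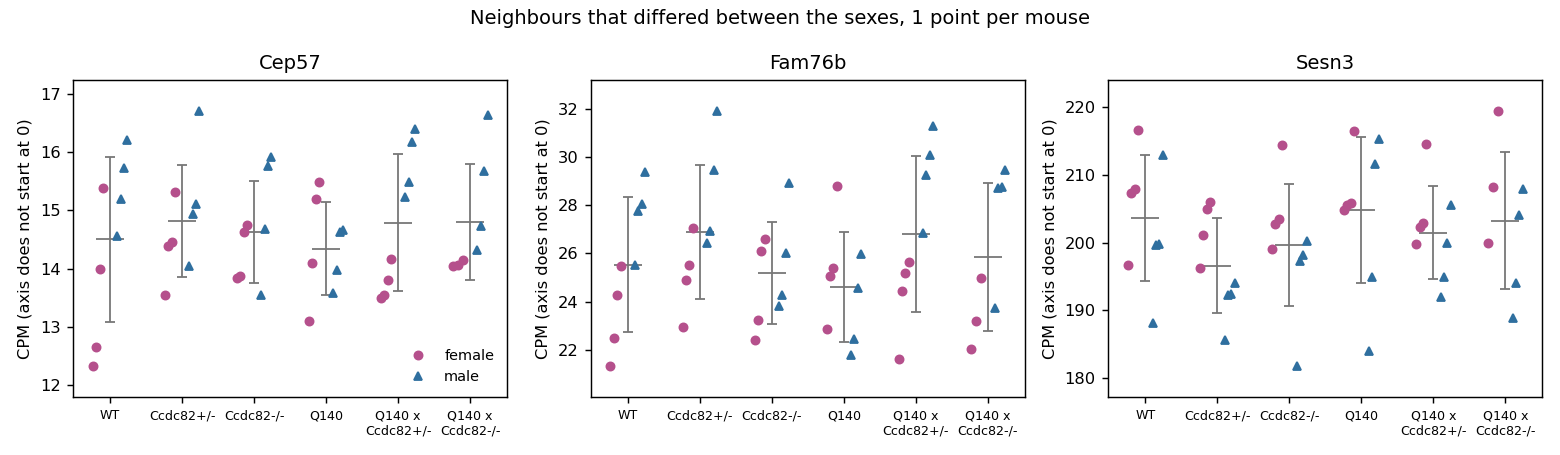
CPM of Cep57, Fam76b and Sesn3 in each mouse by genotype and sex; circles are females, triangles males, sorted by value within sex, grey bars are means with SD, and the axes do not start at 0. Sesn3 means are lower in males in 6 of 6 genotypes, while Cep57 and Fam76b means are higher in males in 5 of 6, Q140 being the exception.

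The members were also compared from mouse to mouse within a genotype and sex, by correlating what remained of log2 CPM after the genotype and sex means were removed. Of the 28 pairs, 3 passed a permutation test adjusted over the pairs (Benjamini-Hochberg over 28, two-sided, 100000 permutations within genotype, 47 mice). The head-to-head genes Cep57 and Fam76b had the highest positive correlation, with Pearson r = 0.58 (permutation p = 6.0e-05, adjusted p = 0.00168) and Spearman rho = 0.52 (adjusted p = 0.0115). It was 0.62 in females and 0.54 in males, and 0.49 without the 2 mice farthest from the median of Cep57. Mice high in one gene of the pair were therefore mostly high in the other. Over all genes tested, however, genes on other chromosomes had a higher r with each in the same residuals. The highest were Zkscan2 on chromosome 7 for Fam76b (r = 0.84) and Sypl on chromosome 12 for Cep57 (r = 0.67). Neither gene of the pair was among the 5 genes most like the other.

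The other head-to-head pair did not show such a relation: for Ccdc82 and Jrkl r was 0.11 (permutation p = 0.465). Sesn3 ran opposite to Fam76b (r = -0.52, rho = -0.51, permutation p = 0.00091, adjusted p = 0.0113) and to Endod1 (r = -0.50, rho = -0.46, permutation p = 0.00121, adjusted p = 0.0113). Without the 2 mice farthest from the median of the first gene these were -0.48 and -0.46. The remaining 25 pairs had r between -0.34 and 0.28.

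Part of this variation ran along 1 axis shared by many genes. The first principal component of the residuals over all 19174 genes held 9.36% of their variance, and it correlated with Fam76b (r = 0.76), Endod1 (0.58), Cep57 (0.48) and Sesn3 (-0.61), as a description over 47 mice. When it was removed, a step chosen after the correlations were seen, Cep57 and Fam76b remained at r = 0.37, Sesn3 and Endod1 at -0.22, and Fam76b and Sesn3 at -0.10. Cep57 and Fam76b were then no longer the pair with the highest r: Ccdc82 and Fam76b went from 0.11 to 0.48 and Maml2 and Cep57 from 0.28 to 0.372. Fam76b and Endod1 turned from 0.24 to -0.38. What this axis reflects was not tested.

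**Figure D5:**
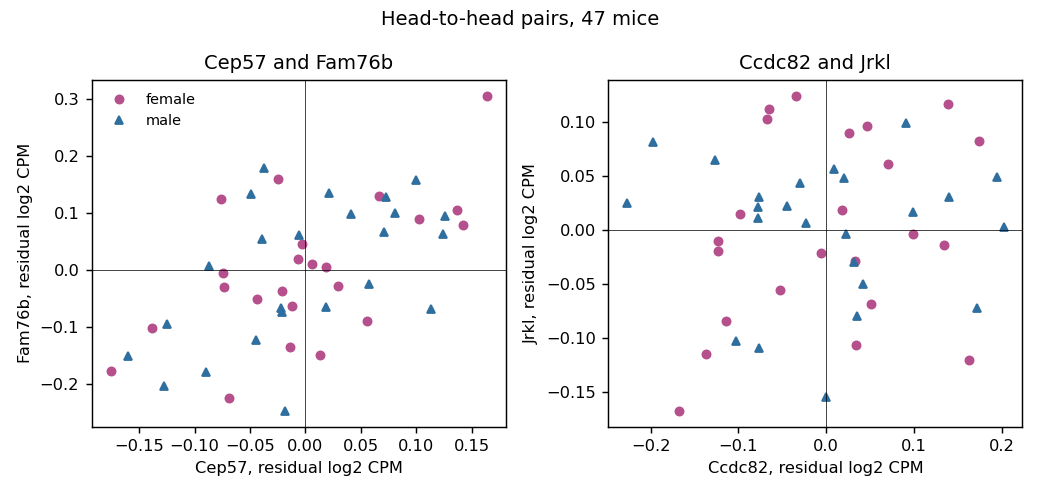
Residual log2 CPM, with genotype and sex means removed, of Fam76b against Cep57 (left) and of Jrkl against Ccdc82 (right), 1 point per mouse. The left points rise together (r = 0.58) and the right points show no such trend (r = 0.11).

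By Pearson correlation of log2 CPM over the 47 libraries, the genes most like Ccdc82 were Gm20535 (r = 0.51), the kisspeptin receptor Kiss1r (0.47), Hspa2 (0.47), Rnaset2b (0.46) and Aldh3b2 (0.44). None of these genes was called in a comparison of Ccdc82 genotypes. With genotype and sex means removed the list was a different one: Nbeal1 (0.66), the neurotrophin receptor scaffold Kidins220 (0.66), Gm7972 (0.64), the ryanodine receptor Ryr2 (0.64) and Uimc1 (0.63). Both lists are descriptions over libraries that share depth and tissue composition. Of the 10 genes, Gm7972 was the 1 on chromosome 9, outside the 5 Mb window.

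For the 4 neighbours with a well-known pathway, the other genes of that pathway were counted in the same fits. Of 32 Notch pathway genes beside Maml2, 0 were called in a comparison of Ccdc82 genotypes or of pooled Q140. In pooled Ccdc82-/- 3 were under an unadjusted p of 0.05, where 4.65% of all genes were (median log2 0.00207, all genes -0.000694). The 2 with the smallest p there were Psen2, a gamma-secretase subunit (-0.09, SE 0.028, adjusted p = 1), and the glycosyltransferase Mfng (-0.15, SE 0.065, adjusted p = 1). Between the sexes 3 of the 32 rose and 3 fell in males, where 10.5% of all genes were called. Jag2, a ligand, rose by 0.06, Aph1a, of the gamma-secretase, by 0.10 and the coactivator Maml1 by 0.09. Hey1, a target gene, fell by 0.09, the sheddase Adam10 by 0.05 and the Notch inhibitor Numb by 0.11.

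Of 29 genes of the sestrins and amino acid sensing beside Sesn3, 0 were called in the comparisons of Ccdc82 genotypes or pooled Q140. In pooled Ccdc82-/- 0 were under an unadjusted p of 0.05, where 4.65% of all genes were. The smallest p belonged to the small GTPase Rheb (-0.04, SE 0.021) and to Lamtor4, of the lysosomal Ragulator (-0.04, SE 0.026). Between the sexes Mios, of the GATOR complex that sestrins bind, rose by 0.08 in males (adjusted p = 0.0279), and it was the 1 gene of the 29 called, where 10.5% of all genes were. Sesn3 thus had no called companion in the same direction among these genes.

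Of 21 myotubularin and phosphatidylinositol 3-phosphate genes beside Mtmr2, 0 were called with Ccdc82 genotype or pooled Q140. The lipid kinase Pik3c3 (0.03, SE 0.019) and the pseudophosphatase Sbf1 (-0.02, SE 0.016) had the smallest p in pooled Ccdc82-/-. In males Inpp4a (-0.07) and Mtmr9 (-0.04) fell and Vac14 (0.06) rose, 3 of the 21 beside 10.5% of all genes. Of 20 centrosome genes beside Cep57, 0 were called with Ccdc82 genotype or pooled Q140, with Plk4, the kinase that starts centriole duplication, at 0.15 (SE 0.056, unadjusted p = 0.0103) and Cep192 at -0.06 (SE 0.033). Between the sexes 4 of the 20 centrosome genes rose in males and 0 fell, beside 5.26% of all genes higher and 5.27% lower. They were Pcnt, the pericentrin scaffold (0.09), Cep135 (0.09), Cep164 (0.13) and Tubgcp2 (0.07). The median sex difference of the 20 genes was 0.04, where that of all genes was -0.00101, and Cep57 itself was at 0.10.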

How the data were processed

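The members and gene lists were chosen with earlier results of these data known. RNA of 47 cortex samples had been prepared as stranded libraries. STAR 2.7.5c, SAMtools 1.10 and HTSeq 0.12.3 and the GRCm38 (mm10) build are named in the submitters' processing notes, with no annotation release. The authors deposited raw read counts per gene for each library, and a second table of FPKM per gene, made from these counts with the authors' gene lengths. The total was 43554594 to 61370843 counts per library, and no further per-sample column was left unused. Of the gene IDs, 48349 of 48795 were found in GENCODE M21. Replicates of a group differed more than counting error (chi-square per gene of 3.86 to 23.7 over 161 pairs), so none was a copy of another. The labels number the libraries within genotype and sex but do not state the litter or cage, and p-values measure the spread between these libraries.

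Counts were filtered by filterByExpr (minimum count 10, minimum total 15), which kept 19174 genes, scaled by TMM and fitted in edgeR 4.0.16 (R 4.3.3) with the robust quasi-likelihood method. All 47 libraries entered 1 fit of 6 genotype means and sex, and sex differences of an effect came from a fit of 12 genotype-by-sex means. Adjustment was by Benjamini-Hochberg over all genes tested, and SEs are those implied by the F statistic. Single values were compared by exact permutation tests, and pairs of members by permutation within genotype. The fit was tested on simulated counts with 200 changed genes. Alternatives used DESeq2 1.42.0, limma 3.58.1 on log2(FPKM + 0.1) or log2(FPKM + 1), other scalings, filters, terms and subsets of mice. Genes named are the 8 members, the 5 genes most like Ccdc82 by each measure, and Htt. The gene most like Cep57 and the gene most like Fam76b in residuals are named as well. Of the 5 Mb window and each list, those called are named or, with none called, the 2 with the smallest p in pooled Ccdc82-/-. Same-numbered libraries of the titles did not deviate together (mean correlation -0.019 over 115 pairs, lowest -0.253), so the numbers were not treated as pairs. Libraries that shared a library-name number had a mean correlation of 0.031 over 38 pairs, against -0.030 for different numbers. The consensus correlation used for the random block was 0.142. The main fit left this number out, so its SEs, also for sex, treat such libraries as independent.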

Additional observations from a re-analysis of the deposited data

How the results depend on the processing

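Ccdc82 kept its direction and its call in 103 of 104 refits of the 8 comparisons of Ccdc82 genotypes (13 alternatives each). The exception was Q140 with Ccdc82+/- against Q140 in males only, at -0.40 (adjusted p = 0.479, 0 genes called), with 4 mice a group. With the title number as a replicate block Ccdc82 differed by -1.61 in Ccdc82-/- and -0.57 in Ccdc82+/- against WT, and the block changed no call of a neighbour. That block moved sex calls to 2188, and 4 of 47 libraries correlated best with their own number. The near-zero Q140 difference of Ccdc82 changed sign when plate column was a term (-0.00245) and in males only (-0.0173). Genes called for pooled Q140 numbered 19 in females, 19 in males and 98 in limma-trend on log2(FPKM + 0.1) without a filter, against 168. Their split, 65 higher and 103 lower, was 69 and 68 in limma-trend on log2(FPKM + 0.1) with the filter. With a random block for the number in the library name the sex calls fell to 853. Removing the first principal component, an alternative chosen after seeing the data, moved the correlations to 0.371 (Cep57 and Fam76b), -0.222 (Sesn3 and Endod1) and -0.104 (Fam76b and Sesn3). The causes of these changes were not tested. The sex calls of Cep57, Fam76b and Sesn3 passed in 10 of 10 alternatives each, with log2 values of 0.09 to 0.11, 0.14 to 0.17 and -0.07 to -0.05. These include leaving out the library farthest from its group and sex mean, also chosen after seeing the data. The Fam76b difference in pooled Ccdc82+/-, not called, ranged from 0.01 to 0.18. Over all results 615 alternative values kept their side of the threshold or their range and 6, all of the sex difference of Ccdc82, newly passed it. Depth limits Jrkl, Maml2 and the residual Ccdc82 of Ccdc82-/- mice most, since their counts are the lowest.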

Other observations

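Within 5 Mb of Ccdc82, 11 of 41 tested genes other than Ccdc82 differed between the sexes (26.8%, against 10.5% of all genes tested), 5 higher and 6 lower in males, in edgeR. Besides Fam76b, Cep57 and Sesn3 these were Fat3, a giant cadherin, which fell in males by 0.19 (SE 0.024), and the amino acid transporter Slc36a4, which rose by 0.09 (SE 0.015). The histone demethylase gene Kdm4d rose by 0.36 (SE 0.074, mean 1.40 CPM), and its relative Kdm4dl by 0.37 (SE 0.119) at a mean of 0.362 CPM. The orphan receptor gene Gpr83 fell by 0.11 (SE 0.032), the cation channel gene Trpc6 by 0.13 (SE 0.040), the pannexin Panx1 by 0.10 (SE 0.030) and Chordc1 by 0.15 (SE 0.048). In the 10 Mb window the share was 16.7% (24 of 144 genes). These genes share libraries and a chromosome, and the window was not compared with other windows. Of 48 groups of a member and a genotype, 0 held a mouse set apart by Dixon's criterion.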
